A study of Caenorhabditis elegans with 4 samples.

Results

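MED-1 binding in the outer parts of the chromosomes, the arms and tips of C. elegans, was described from a list of ChIP-seq peaks that the authors named as combined. A peak was counted as outer when its midpoint lay outside the centre domain of its chromosome, and 296 of the 599 combined peaks met that rule, 138 on left sides and 158 on right sides. On the WormBase WS180 build that the lists use, the centre domains ran in Mb from 3.858 to 11.04 on I, from 4.879 to 12.02 on II, from 3.722 to 10.34 on III, from 3.896 to 12.97 on IV, from 5.897 to 16.55 on V and from 6.137 to 12.48 on X. The other 303 peaks lay inside them.

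ChIP-seq recovers the DNA that a protein is crosslinked to, and here an antibody to green fluorescent protein (GFP) was used on embryos of the strain OP391. The strain carries unc-119(ed3) III and the bombarded transgene wgIs391, which encodes MED-1 with a TY1, EGFP and FLAG tag at its C terminus and also holds unc-119(+). All samples share this genotype, come from mixed male and hermaphrodite populations grown at 20 °C and are labelled embryo, with the tag MIDEMB in the titles. The labels give 2 ChIP samples and 2 inputs, and each ChIP sample has its own list. No untagged strain is among them, and values of the inputs were not analysed here. Peaks at DNA that the transgene carries could not be told apart from binding elsewhere, because no genes were placed on this build.

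MED-1, a DNA-binding protein of the GATA zinc finger family, acts early in the embryo, in the cell that founds endoderm and part of the mesoderm. It is known to switch on end-1 and end-3, which specify the gut, and tbx-35, which specifies mesoderm. Worm chromosomes have no single centromere and differ along their length. The gene-dense centres of the autosomes recombine rarely and hold many conserved genes, while their arms recombine more and are richer in repeats and in chromatin with methylated H3K9. The tips recombine little, and on X these contrasts are weaker.

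Each list gives the authors' PeakSeq q-value per peak, written here as −log10 q, so that a larger value is a stronger peak. The depth behind it is unknown and q-values move with depth, so values of the 3 lists stand side by side and are not on 1 scale. After overlapping lines of replicate 1 were joined, 91 of its 212 sites were outer (42.9%, 95% exact interval 36.2 to 49.9%), as were 121 of the 258 sites of replicate 2 (46.9%, 40.7 to 53.2%). Nothing in the labels says that the samples are separate cultures, so their agreement may be technical.

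Outer peaks were 8 of the 15, 21 of the 50 and 46 of the 100 strongest combined peaks, and 49.4% of all of them. They included the strongest region of the series. That region lay on the right side of chromosome I, from 15064001 to 15067654, where it was the last peak before the end. Replicate 1 gave it a −log10 q of 167, replicate 2 gave 220.0 and the combined list 271, far above every other outer peak in all 3 lists. At 3654 bp it was also the widest outer peak. The array of ribosomal RNA genes is known to lie at the right end of this chromosome, and whether the region falls within it was not tested.

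The next outer peak stood on the right side of III, from 10460975 to 10461387, with 26.8 in replicate 1, 28.8 in replicate 2 and a combined value of 55.7. It lay 121 kb outside the centre boundary. Right I held 3 more of the 12 strongest outer peaks. The one from 14721444 to 14721804 had a −log10 q of 45.0, with 18.3 in replicate 1 and 25.7 in replicate 2. The one from 14737274 to 14737646 had 27.4, with 11.8 and 13.4. These lay 346 kb and 330.2 kb from the end of the last peak of the chromosome. The one from 14113053 to 14113633 had 34.5, with 20.5 and 14.0.

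Left sides held 6 of the 12. The strongest of them lay on I from 1958331 to 1958761 (combined 39.4, with 18.8 in replicate 1 and 21.2 in replicate 2). On IV the interval from 390334 to 390699 had 36.4, with 19.9 and 18.8, and its midpoint was 391 kb from the left end. On V the interval from 4731410 to 4731747 had 30.9, with 12.9 and 15.3. Left III carried 3, from 3664237 to 3664563 (30.8, with 19.4 and 12.4), from 3174996 to 3175352 (28.9, with 14.9 and 13.4) and from 2768649 to 2769019 (26.5, with 12.1 and 14.8). The first of these was only 57.6 kb outside the boundary. The last of the 12, on right IV from 14032529 to 14034430, was broad at 1902 bp and reached 26.5, with 15.9 in replicate 1 and 13.1 in replicate 2. All 12 were found in both replicates.

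The strongest peaks of the other sides were weaker. They reached 24.8 on right V from 19642931 to 19643389, 23.9 on right II from 14804252 to 14804856, 23.7 on left X from 3035881 to 3036343, 19.9 on left II from 4237937 to 4238244 and 19.3 on right X from 13046204 to 13046630. These too were in the strongest 25% of the list and had a site in both replicates. X thus had no outer peak among the 12 strongest, while the median of its 72 outer peaks, 8.19, was above that of the outer peaks of each autosome, which ran from 5.32 on II to 7.12 on IV. Among the 50 strongest outer peaks 16 lay on X, 12 on III and 2 on II, which held 72, 65 and 34 outer peaks in all.

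**Figure D1:**
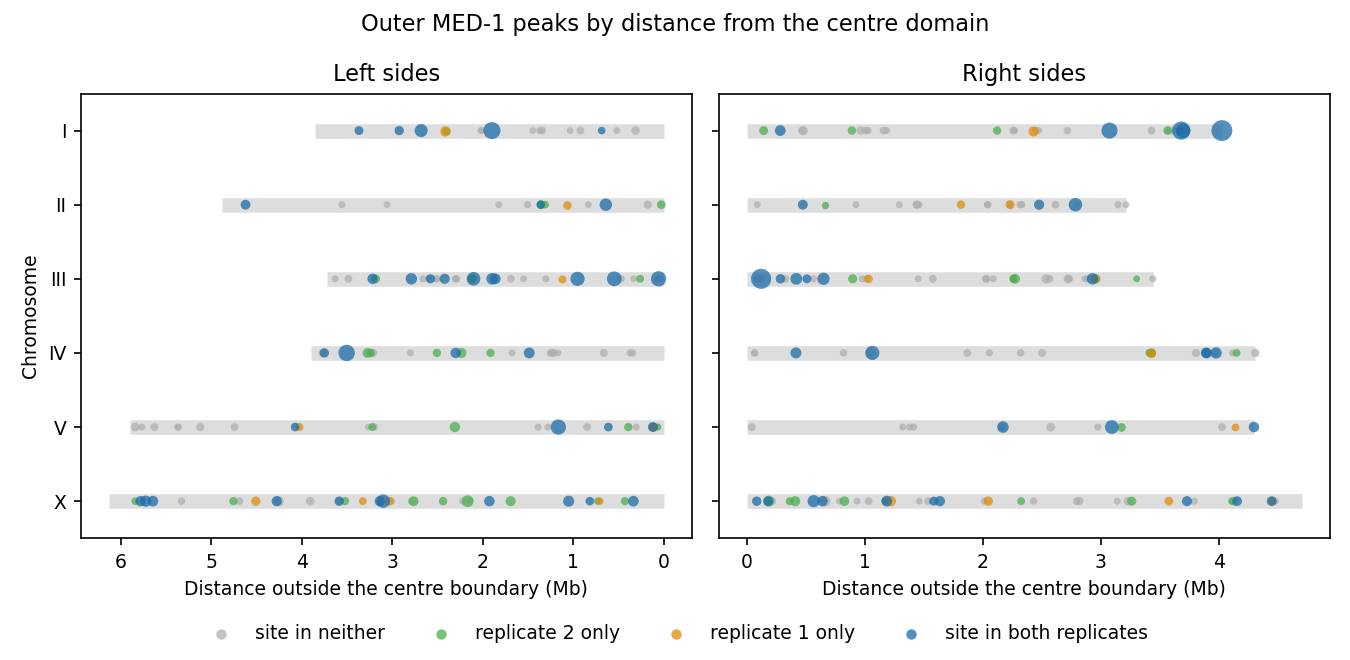
Each point is an outer combined peak, placed by its distance in Mb outside the centre boundary on the left or right side of its chromosome. Colour gives the replicate lists it was found in, area grows with −log10 q up to 60, and grey bars span the boundary to base 1 (left) or to the last peak (right). Left II is nearly bare over much of its length, and the strongest points of right I gather at its outer end.

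The first comparison asked whether peaks were thinner outside the centres. Outer parts carried 5.65 combined peaks per Mb (95% exact Poisson interval 5.03 to 6.33) over 52.4 Mb, and the centres 6.45 per Mb (5.74 to 7.21) over 47.0 Mb. The outer share was 49.4% of peaks (45.3 to 53.5%) for 52.7% of the span, a difference that did not pass (two-sided exact binomial test, p = 0.111, adjusted over 2 tests 0.111). It did pass with the list of replicate 1 alone, at 42.9% (adjusted p = 0.00945, exact binomial test), and not with that of replicate 2, at 46.9% (adjusted p = 0.141). It also passed with centres 0.5 Mb wider at each boundary or right ends 0.3 Mb further out (adjusted p = 0.0368 and 0.048, exact binomial test).

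Chromosome II was the only 1 of the 6 to pass. Its outer parts held 34 of 97 peaks, 35.1% (25.6 to 45.4%) for 53.1% of its span (exact binomial test, adjusted over 6 chromosomes p = 0.00287). The deficit passed under all 9 alternatives run, with 11 of 41 sites outer in replicate 2 and 9 of 33 in replicate 1. The alternative without the strongest region of the series could not change it, since that region lies on I. That alternative and the 1 with matched peaks only were not planned. Left II carried 2.66 peaks per Mb (1.42 to 4.56), the lowest value of the 12 sides, against 8.82 per Mb (6.78 to 11.3) in its centre and 6.54 (4.05 to 9.99) on its right. The longest stretch without a peak within left II was 1236 kb, and right V had a longer one of 1279 kb. V had an outer share of 38.8% for 48.9% of its span and did not pass (exact binomial test, p = 0.0544, adjusted 0.163). Its outer parts held 3.73 peaks per Mb (2.64 to 5.12), fewer than the 4.20 (2.91 to 5.87) of outer II. On I, III, IV and X the outer share was 56.4%, 49.2%, 54.4% and 62.6% for 52.3%, 52.0%, 47.5% and 63.1% of the span, and the lowest adjusted p was 0.52 (exact binomial test). A lower share of outer peaks on II is largely the higher central share already known from these lists, drawn with other boundaries, and adds no independent support to it. Whether II differs from the other chromosomes was not tested.

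**Figure D2:**
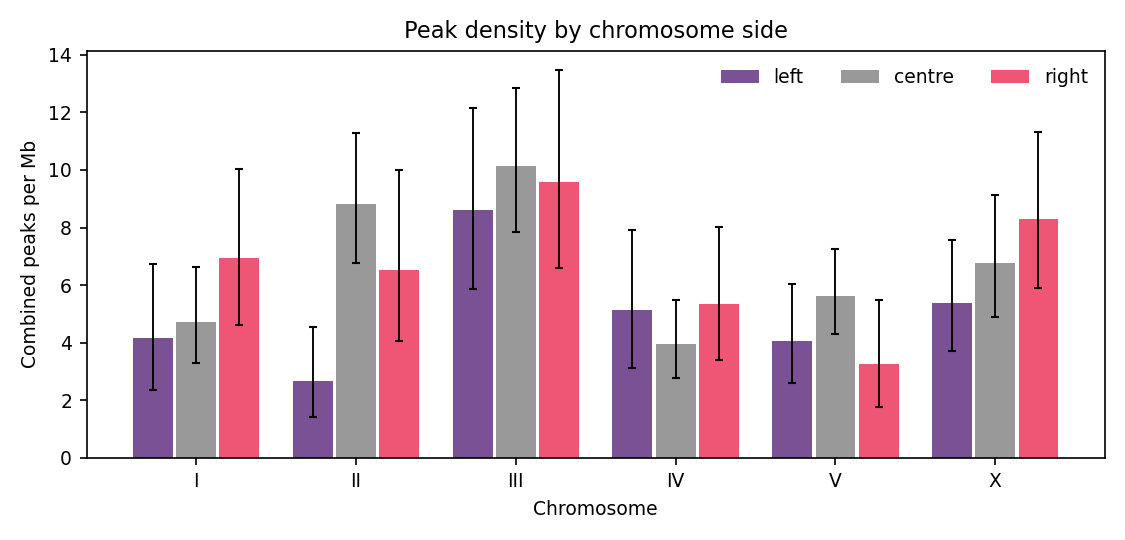
Bars give combined peaks per Mb on the left side, in the centre and on the right side of each chromosome, with 95% exact Poisson intervals for counting error only. Left II is the lowest bar at 2.66 and the lowest of the 3 parts of III is its left side at 8.60.

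The second comparison set left against right sides. Left sides carried 4.86 peaks per Mb (4.08 to 5.74) and right sides 6.59 (5.60 to 7.70), so that 46.6% of outer peaks were on the left for 54.2% of the outer span (exact binomial test, p = 0.0102, adjusted over 2 tests 0.0203). Right sides were cut at the last peak, which shortens them and favours this difference. With right ends 0.3 Mb further out the left held 52.4% of the outer span (adjusted p = 0.048, exact binomial test). The difference was not seen in the replicate lists, where 52.7% of outer sites in replicate 1 and 52.1% in replicate 2 lay on the left (adjusted p = 0.834 and 0.649, exact binomial test), nor among combined peaks with a replicate match (52.2%, adjusted p = 0.67), a split chosen after the values were seen. No single chromosome passed. II came nearest with 13 of 34 outer peaks on the left (adjusted p = 0.0775), and I and X had 16 of 44 and 33 of 72 (adjusted p = 0.199 for each, exact binomial test).

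Counted inward from the last peak, the outermost Mb of the right sides was the densest of the outer zones. It held 56 peaks, 9.33 per Mb (7.05 to 12.1), against 25 in the first Mb of the left sides, 4.17 per Mb (2.70 to 6.15). On right IV it held 13 peaks, on III 11, on I and II 10 each, on X 9 and on V 3. The first Mb of left I and II held 2 and 1, of left IV and V 6 each and of left III and X 5 each. V thus ran the other way from the rest. From 1 to 2 Mb from the ends the left sides had 6 per Mb and the right sides 5.83, and from 2 to 3 Mb they had 4.17 and 4. From there to the boundary the left sides had 52 peaks, 5.01 per Mb (3.74 to 6.56), and the right sides 43, 7.18 per Mb (5.19 to 9.67). The right ends were set at the last peak of any list, which leaves out any peak-free tip. On all right sides but X that last peak is a combined peak, which is thus counted by construction. On X it is a replicate 2 site that the combined list lacks. Left-hand zones ran from base 1 and kept their empty tips, with first peaks from 53.5 kb on V to 488 kb on I. The sides are thus not cut alike, and these densities are given without a test. Of the 56 right-hand peaks 27 had a replicate match (48.2%) and 14 were found in both replicates (25%). Of the 25 left-hand peaks 14 had a match (56%) and 10 were found in both (40%). Among all outer peaks the shares were 46.6% and 23.3%. On left V none of the 6 terminal peaks had a match, and the strongest reached 8.37. On the other left sides 2 of 2 matched on I, 1 of 1 on II, 3 of 5 on III, 4 of 6 on IV and 4 of 5 on X.

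**Figure D3:**
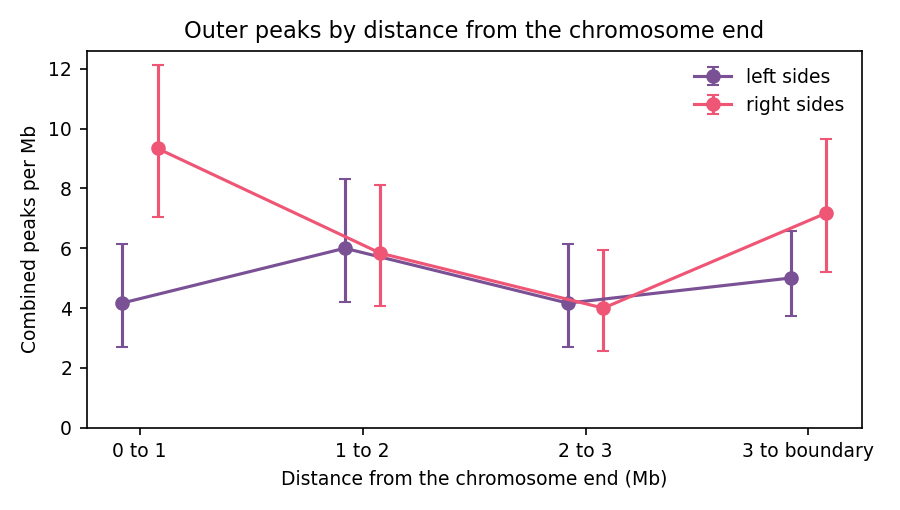
Points give combined peaks per Mb by distance from the chromosome end for left and right sides over all 6 chromosomes, with 95% exact Poisson intervals. The end is base 1 on the left and the last peak of any list on the right, so the sides are not cut alike. The right-hand value within 1 Mb of the end, 9.33, lies above the left-hand one, 4.17, and the sides overlap at the other distances.

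The peaks nearest to the chromosome ends were of mixed strength. Beside the region on I, the last peak on right V, from 20847443 to 20847768, was found in both replicates (combined 13.2, with 5.12 in replicate 1 and 4.53 in replicate 2). So were the first peaks on left II, from 255201 to 255530 (11.4, with 6.24 and 6.66), and left I, from 488317 to 488566 (8.83, with 5.15 and 4.95). The first peak on left X, from 293247 to 293624, was found in replicate 2 only (5.78 combined, 5.13 in replicate 2). The end peaks of both sides of III and IV, of left V and of right II and X had no site in either list. Their combined −log10 q ran from 4.11 on right II to 8.37 on left V, and the one on right III, from 13778157 to 13781088, was broad for its strength at 2932 bp and 4.68.

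The third comparison asked how often outer peaks had a site in the replicate lists, with an overlap of at least 1 bp. By its name the combined list draws on the same 2 ChIP samples, so a match is no independent finding. Of all combined peaks, 48.7% had a site in at least 1 replicate and 27.9% in both. Among outer peaks 138 of 296 had a match, 46.6% (40.8 to 52.5%), against 50.8% (45.0 to 56.6%) of central ones. The difference, outside minus inside, had an interval from −12.1 to 3.78 percentage points and did not pass (two-sided Fisher's exact test, p = 0.327, adjusted over 7 tests 0.458). It was −4.20 points, and it was −8.54 points without chromosome X, a setting added after the values were seen, −8.88 points with matches to replicate 1 alone and −1.25 points with centres 0.5 Mb narrower (adjusted p = 0.141, 0.0594 and 0.87, Fisher's exact test). Outer peaks found in both replicates were 69, or 23.3% (18.6 to 28.6%), against 98 central ones, or 32.3% (27.1 to 37.9%). This difference, −9.03 points with an interval from −16.1 to −1.85, passed before adjustment and not after (Fisher's exact test, p = 0.0141, adjusted 0.0654). In the stronger 50% of the combined list it passed, with 45.6% outside and 64.7% inside (adjusted p = 0.00784, Fisher's exact test). A like contrast between central and other peaks is already known from these lists with other boundaries, so this is no independent support.

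Double matches were nearly absent from the weaker part of the list, where none of 72 outer and 78 central peaks in the weakest 25% had one, and 1 of 75 in each place did in the following 25%, so only the stronger part could show a difference. In the strongest 25% 55 of 71 outer peaks had a site in both replicates, 77.5% (66.0 to 86.5%), against 73 of 79 central ones, 92.4% (84.2 to 97.2%). In the 25% below these it was 13 of 78, 16.7% (9.18 to 26.8%), against 24 of 71, 33.8% (23.0 to 46.0%). A match in at least 1 replicate was had by 97.2% of outer and 98.7% of central peaks in the strongest 25%, and by 66.7% and 73.2% in the 25% below. These parts of the list were not tested one by one.

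**Figure D4:**
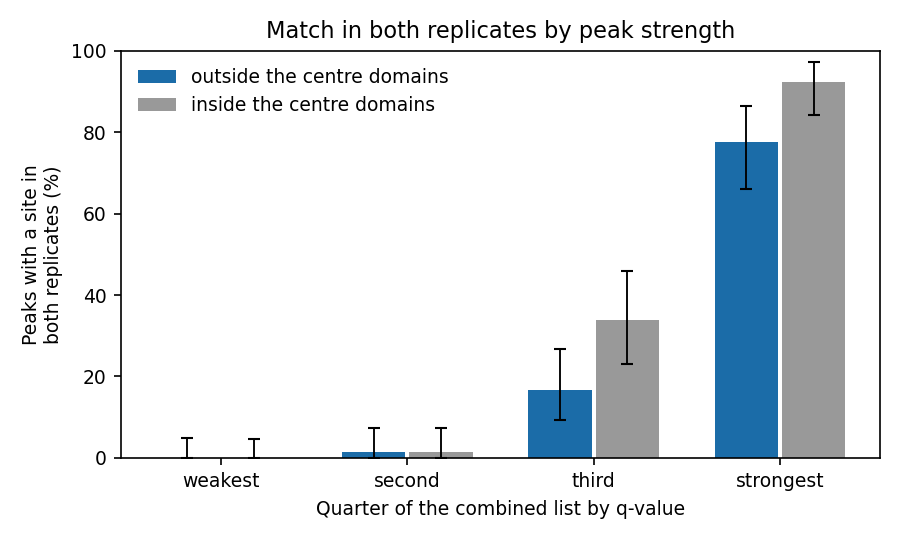
Bars give the percentage of combined peaks with a site in both replicate lists, in 4 equal parts of the list from weakest to strongest, outside and inside the centre domains, with 95% exact binomial intervals. In the strongest part the outer bar stands at 77.5% and the central bar at 92.4%.

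Of the 71 outer peaks in the strongest 25% of the list, 14 were found in a single replicate. X held 26 of the 71 and 7 of the 14, where it held 72 of all 296 outer peaks. The strongest 3 were on left X from 3969358 to 3970238 (17.7 in the combined list, 9.11 in replicate 2), on right X from 12665010 to 12665330 (15.3, with 7.63 in replicate 2) and on right X from 13700621 to 13701038 (13.0, with 9.07 in replicate 1). They are named after their values were seen. In all, replicate 2 alone held 49 outer peaks and replicate 1 alone held 20, while for central peaks these counts were 36 and 20. On outer X 46 of 72 peaks had a match, 63.9% (51.7 to 74.9%), and in the centre of X 25 of 43 had one, 58.1% (42.1 to 73.0%). On the outer autosomes the share ran from 38.2% on II to 43.1% on III, and together it was 92 of 224 or 41.1% (34.6 to 47.8%). The autosomal centres ran up to 63.3% on V. The contrast between X and the autosomes was noticed in the values and was not tested.

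On left sides 72 of 138 peaks had a match, 52.2% (43.5 to 60.7%), and on right sides 66 of 158, 41.8% (34.0 to 49.9%). The difference of 10.4 points, with an interval from −0.971 to 21.4, did not pass (Fisher's exact test, p = 0.0806, adjusted 0.188).

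Read from the replicates, 69 outer sites were shared. They were 75.8% (65.7 to 84.2%) of the 91 outer sites of replicate 1 and 57.0% (47.7 to 66.0%) of the 121 of replicate 2. Inside the centres the shares were 81.0% (72.9 to 87.6%) and 71.5% (63.2 to 78.9%). The contrast for replicate 2, −14.5 points with an interval from −25.8 to −2.81, did not pass after adjustment (Fisher's exact test, p = 0.0187, adjusted 0.0654), and that for replicate 1 did not pass either (p = 0.399, adjusted 0.465). The 22 unshared outer sites of replicate 1 had a median −log10 q of 5.25 and the 52 of replicate 2 one of 4.98, while the shared sites had 7.91 and 7.74.

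Outer sites counted in both replicates overlapped the same combined peak, a rule that limits how far apart they could lie. Within it the midpoints were a median of 16 bp apart and at most 174 bp. The median width of these combined peaks was 397 bp. Across the pairs Spearman's rho of −log10 q was 0.63 and Pearson's r 0.99, and without the chromosome I region they were 0.62 and 0.82. The 98 central pairs had a rho of 0.67 and an r of 0.87. These values describe sites that share their libraries and passed 2 thresholds.

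The combined value was not a fixed part of the replicate values, and since the 3 lists may differ in depth, the ratios that follow describe the lists and not binding. On left III, from 931225 to 931869, replicate 1 gave 24.8 and replicate 2 gave 17.0, but the combined value was 16.3. That was 0.39 of the sum of both replicates there, where the median over outer pairs was 0.948. The lowest ratio, 0.323, was on left I from 3171486 to 3171883, with 9.76 in replicate 1, 8.45 in replicate 2 and 5.88 combined. The opposite case was the last peak of V, with a ratio of 1.37. These 3 were picked for their ratios. Of the outer sites, 2 of replicate 1 and 3 of replicate 2 were not in the combined list, with −log10 q of at most 6.09, and none of them was shared.

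**Figure D5:**
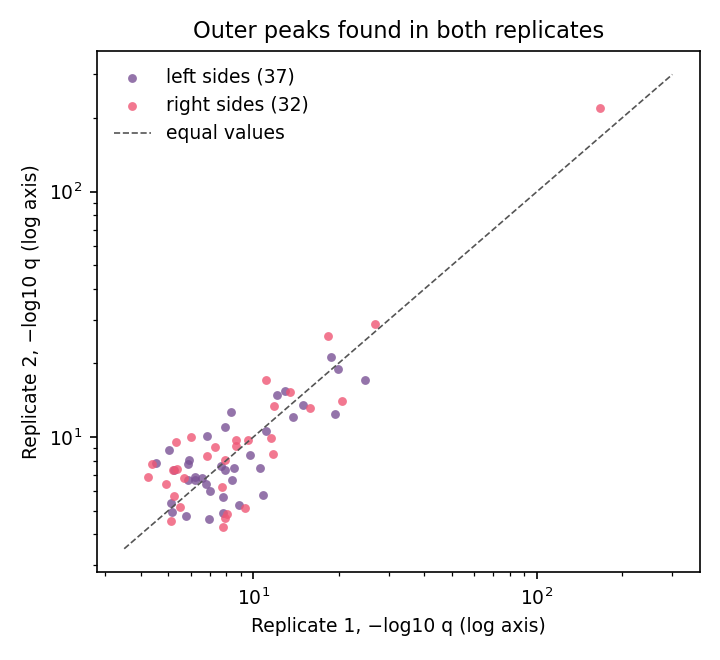
Each point is an outer peak found in both replicates, with −log10 q in replicate 1 and in replicate 2 on log axes, and the dashed line marks equal values. The chromosome I region at 167 and 220.0 lies far from the other 68 pairs, which reach at most 26.8 in replicate 1 and 28.8 in replicate 2.

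Neither strength nor width differed between outer and central peaks past the threshold. The median −log10 q of outer peaks was 6.64 and that of central peaks 6.51, with 149 of 296 outer peaks (50.3%) and 150 of 303 central ones (49.5%) in the stronger 50% of the list. The difference of 0.833 points had an interval from −7.13 to 8.78 (Fisher's exact test, p = 0.87, adjusted 0.87). Median width was 301 bp outside and 319 bp inside, and 46.6% of outer against 52.8% of central peaks were wider than the list's median (difference −6.18 points, interval −14.1 to 1.81, Fisher's exact test, p = 0.142, adjusted 0.248). Outer peaks covered 114 kb, or 2.17 kb per Mb, against 118 kb and 2.51 kb per Mb in the centres. By class, outer peaks found in both replicates had a median −log10 q of 13.9 and a width of 397 bp. Those found in neither had 5.12 and 261 bp.

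Broad outer peaks were few. Of 9 wider than 1000 bp, 6 had a replicate match, where 48.7% of all combined peaks had one. In the centres 8 were that wide, 3 of them with a match, and the widest peak of the series, 5998 bp, was in the centre of X. The second widest outer peak, on right III at the very end, has been named. The third, on right V from 18719295 to 18721289, spanned 1995 bp and had a combined value of 16.9, with 7.33 and 9.10 in replicates 1 and 2. A broad one without a match, on right X from 13144069 to 13145529, was the strongest of the 158 unmatched outer peaks at 13.0. The next of these were on left X from 1880754 to 1881083 (12.2) and on right I from 11517159 to 11517452 (10.04). At the other extreme 8 outer peaks were under 100 bp, none with a match, and so were 7 central peaks, also without a match. The narrowest outer peaks spanned 3 bp on right II from 13480072 to 13480074 (4.14), 38 bp on left V from 520665 to 520702 (4.22) and 62 bp on right III from 10904915 to 10904976 (4.75).

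Some outer peaks lay in small groups. Gaps under 10 kb separated 32 of 284 neighbouring pairs within a side, against 28 of 297 inside the centres, and they joined 58 outer peaks into 26 groups. The largest group held 5 peaks in 19.4 kb on right IV from 16382026 to 16401382. Its −log10 q ran from 4.66 to 9.55, and 3 of its peaks had a match, each in a single replicate. Left IV had no gap under 10 kb, and right IV had 7. These counts were not tested.

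The peaks next to the rule's boundaries were of mixed strength. The nearest outer peaks lay 27.2 to 344 kb beyond the 12 boundaries, with combined −log10 q from 4.25 to 13.9 (median 5.64), and 5 of the 12 had a replicate match. The nearest central peaks lay 5.95 to 1060.2 kb inside, with values from 4.90 to 31.0 (median 9.48). A match was had by 5 of those 12, where 48.7% of all combined peaks had one. The strongest of these central peaks was on II from 11960536 to 11961083, only 59.2 kb inside the right boundary. The closest outer peak was on left II, from 4851650 to 4851900 (8.58).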

How the data were processed

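The authors deposited 3 lists of PeakSeq binding sites on WormBase WS180, per the file headers: 1 per ChIP replicate and 1 named as combined. PeakSeq scores ChIP regions against a control. Per the file headers, each line carries a q-value, which is the only deposited measure of a peak. Aligner, threshold, controls and the way of combining are not given in the sources used. Per the labels' protocols, formaldehyde at 2% was the fixative, and sonication sheared the chromatin.

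In replicate 1, 209 of 212 sites were overlapping lines, 421 lines in all, and were joined with the smaller q-value. Python 3.11.15, numpy 2.4.6, scipy 1.17.1 and matplotlib 3.10.9 were used. Midpoints were set against the centre domains, taken as WS180 positions. Chromosome lengths were not used here: each chromosome ran from base 1 to its highest peak end in any list, which understates right sides. Exact binomial tests compared counts with spans, and Fisher's exact tests compared shares, with Benjamini-Hochberg adjustment over 2, 6 or 7 tests and a threshold of 0.05. Intervals are 95% exact (Newcombe's for differences). They cover counting error, and tests treat peaks as independent. The code was tested on simulated data. Members, boundaries and tests were chosen with earlier results of these data known. Regions named are the 12 strongest, the strongest of each side, the end peaks, the 3 strongest unmatched, 3 widest and 3 narrowest, and others where said. No sequence or gene is given, since no genome of this build was used.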

Additional observations from a re-analysis of the deposited data

How the results depend on the processing

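For the 10 results, 74 values were computed under other settings, and 59 of them had the reported direction and stayed on its side of the threshold. Some of the 59 repeat the reported counts exactly and add nothing. Among these are all match results with an overlap of 50% of the shorter peak, and the chromosome II result without the strongest region. In a single replicate list the outer share of sites was 42.9 to 46.9%, and the left share of outer sites 52.1 to 52.7%. The outer share passed at 42.4% with centres 0.5 Mb wider and with right ends 0.3 Mb further out (49.4% against 53.5% of the span). The left share no longer passed in the stronger 50% of the list (50.3%), with centres 0.5 Mb narrower (48.2%), with peaks under 10 kb apart counted once (48.9%), or among matched peaks (52.2%, a setting added after seeing the data). The share found in both replicates passed in the stronger 50% (45.6%). With narrower centres the match share of left peaks (55.0% against 41.9% on the right) and the shared part of outer replicate 2 sites (58.04%) passed. The direction turned, with no call, for strong peaks with wider centres (49.2% outside, 50.4% inside) and for the upper 25% by strength (24.0% and 26.1%) and by width (25.3% and 24.4%). The cause was not tested. Adjustment of each alternative kept the other Fisher tests as reported. No paired analysis was possible because no list used here gives values of the like-numbered inputs. The unknown depth limits any reading of the differing list lengths.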
